A study of Drosophila melanogaster with 18 samples.

Results

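The chemosensory and pickpocket (ppk) receptor families are the genes through which a fly smells, tastes and senses touch, humidity and irritants. Their 265 members were taken by symbol from the 17559 genes of both count tables. A member is a gene whose symbol begins with Or, Gr, Ir or Obp and a number, or is ppk alone or with a number, with 1 symbol left out by rule. They comprise 60 Or, 60 Gr, 66 Ir, 51 Obp and 28 ppk genes. No measured value was used to choose them. Most are known from sensory neurons or their support cells, so the question was how many gained counts in larval wing discs with each transgene and duration.

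Or and Gr genes encode odorant and gustatory receptors, which are ligand-gated channels of the dendrites of olfactory and taste neurons. An odorant receptor reaches the dendrite together with the co-receptor Orco. Ir genes encode variant ionotropic glutamate receptors, in which a tuned subunit assembles with a co-receptor such as Ir25a, Ir8a, Ir76b or Ir93a. Obp genes encode small secreted odorant-binding proteins made by support cells of sensory hairs and by other tissues. The ppk genes encode subunits of degenerin/epithelial sodium channels of sensory neurons and epithelia. The wing disc is the larval epithelium that forms the wing and part of the thorax, and it holds precursors of sensory bristles but few mature neurons.

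All 18 libraries were made from polyadenylated RNA of wing discs of wandering larvae in the last instar, with 40 discs pooled in each. Per the labels, every group had a heat shock of 37 °C for 30 min that made overlapping clones, was held at 18 °C to keep expression off, and was shifted to 28 °C for the last 48 h or 78 h before dissection. The 3 arms were a control, wild type Tip60 (Tip60wt) and dominant negative Tip60 (Tip60dn), with 3 libraries for each arm and duration. Tip60 is the acetyltransferase of a chromatin complex. The driver, the strain and what transgenes the control carried were not given in the sources used here. A disc with clones is a mixture of cells, and in such bulk samples more cells of a type and more RNA per cell cannot be told apart. The labels do not say that libraries came from separate cultures, so each p measures the spread between these libraries.

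The libraries held 65277725 to 105716567 counts. Levels are in CPM, counts per 1000000 of the library size after TMM scaling, and errors are standard deviations over 3 libraries. At this depth 0.1 CPM stood for 6.34 to 10.6 counts. Tip60 itself stood at 30.8 to 44.9 CPM in the control libraries, at 984 to 1990 CPM with Tip60wt and at 1640 to 3360 CPM with Tip60dn, with endogenous and transgenic counts together, and at 48 h it was higher with Tip60dn than with Tip60wt (log2 0.91, SE 0.12, adjusted p = 6.62e-04). All 10 wing disc epithelium markers were above 0 in every group, and their sum lay between 3360 and 4000 CPM in every library. Hemocyte markers summed to 1740 to 2000 CPM in the Tip60dn libraries of 48 h and to 1170 to 1660 CPM in the controls, and to 1700 to 2020 and 1350 to 1500 CPM at 78 h. Their part in the results below was not tested.

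Most members were silent or nearly so in all arms. Of the 265, 51 had 0 counts in all 18 libraries, and 214 had at least 1 count somewhere. At least 0.1 CPM in all 3 libraries was reached by 46 members in the control of 48 h and by 53 in that of 78 h. The counts were 52 and 51 with Tip60wt, and 58 and 61 with Tip60dn. These are 17.4% to 23.0% of the members, where 54.1% to 56.9% of all genes met the same criterion.

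**Figure D1:**
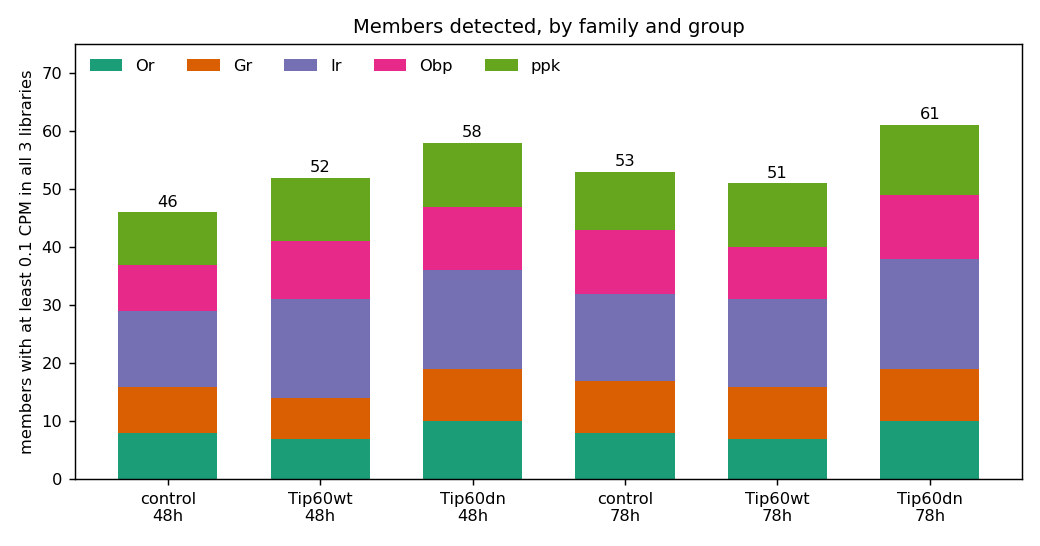
Stacked bars give the number of members, out of 265, with at least 0.1 CPM in all 3 libraries of a group, by family (y axis, number of members; x axis, arm and duration). The totals run from 46 in the 48 h control to 61 with Tip60dn at 78 h.

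Few members went from silent to detected, and their share was close to that of all genes. With Tip60dn at 48 h, 4 of the 201 members under 0.1 CPM in all 3 control libraries were at or above it in all 3 Tip60dn libraries, which is 1.99% against 1.88% of all such genes. They were Or65a, Or98a, Obp56g and Obp56h. At 78 h, 4 of 194 did so, or 2.06% against 2.49%, namely Or56a, Or98a, Obp56g and ppk9. With Tip60wt the counts were 2 of 201 at 48 h (0.995% against 0.534%), Ir94d and Obp19d, and 2 of 194 at 78 h (1.03% against 0.772%), Obp46a and ppk9. In the other direction Or71a alone fell below the level with Tip60dn at 48 h, 1 of 164 members (0.61% against 0.372% of genes), and 0 of 176 did so at 78 h (background 0.22%). Against Tip60wt, 4 of 189 members were newly detected with Tip60dn at 48 h (2.12% against 1.99%) and 5 of 191 at 78 h (2.62% against 1.92%), Or98a and Obp56g among them at both durations.

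Only the better expressed members could be tested. The filter on low counts passed 71 members at 48 h and 69 at 78 h, 74 in either. Some passed it only through their counts with Tip60dn, such as Or56a, Or98a and Obp56g at 48 h and at 78 h, and Obp56h at 48 h. With few counts in the other arms, a fall with Tip60dn could not be called for them. They enter the shares and medians below as rises. Of the others, 65 at 48 h and 75 at 78 h had 0 counts in all 9 libraries of that duration. Among the members below the filter that had a count in the 2 groups, 10 of 124 stood higher in every Tip60dn library than in any control library at 48 h (8.06%, where 7.44% of such genes did), and 1 stood lower (0.806% against 1.86%). At 78 h the counts were 9 of 113 (7.96% against 11.0%) and 1 (0.885% against 1.63%). Against Tip60wt, Tip60dn was higher without overlap for 6 of 121 such members at 48 h (4.96% against 7.66%) and for 6 of 118 at 78 h (5.08% against 7.05%), and lower for 1 (0.826% against 1.21%) and 2 (1.69% against 1.32%). Tip60wt was higher than the control for 5 of 100 at 48 h (5.0% against 2.81%) and 3 of 92 at 78 h (3.26% against 4.42%), and lower for 3 at each duration (3.0% against 4.37%, and 3.26% against 2.77%). Most of these shares lie near or under those of all genes below the filter.

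Among tested members, Tip60dn was accompanied by more rises than falls. Against the control, 17 of 71 members rose and 6 fell at 48 h by the edgeR quasi-likelihood test (adjusted p under 0.05), 23.9% and 8.45%, where 19.6% of all tested genes rose and 19.4% fell. At 78 h, 18 of 69 rose and 5 fell, 26.1% and 7.25% against 22.4% and 21.7%. The share of members that rose was thus near that of all tested genes, and the share that fell was below it. Most tested members were under 1 CPM, a level at which few genes of any kind fell. Of all tested genes under 1 CPM, 16.5% rose and 1.97% fell at 48 h, and 21.2% and 1.78% at 78 h. Members under 1 CPM fell in 4.0% and 4.17%, so the excess of rises over falls is not particular to members. The median log2 fold change of tested members was 0.50 at 48 h and 0.60 at 78 h, beside 0.02 and 0.03 for all tested genes, which were much higher in level. At 78 h the median was 0.60 also with Or98a, which had no control counts, set at its lower bound.

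The direction was similar against Tip60wt. There, 18 of 71 members rose and 5 fell at 48 h (25.4% and 7.04%, background 18.0% and 17.7%), and 19 of 69 rose and 3 fell at 78 h (27.5% and 4.35%, background 17.6% and 19.2%). Of all tested genes under 1 CPM, 1.9% and 1.39% fell here, beside 4.0% and 0.0% of members under that level. Both sets of comparisons share the Tip60dn libraries. Same-numbered libraries were not treated as pairs in these fits. The median log2 fold change was 0.54 at each duration, beside 0.01 for all tested genes.

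Members passed a 2-fold change more often than all tested genes, in both directions, and they were also much lower in level. At least a 2-fold rise against the control was called for 14 of 71 members at 48 h, 19.7% against 6.39% of all tested genes, and for 13 of 69 at 78 h, 18.8% against 7.98%. Against Tip60wt it was called for 13 of 71 (18.3% against 6.21%) and 16 of 69 (23.2% against 6.16%). These rises include members that passed the filter only through their Tip60dn counts, for which no fall could be called. At least a 2-fold fall was called for 2 of 71 members at 48 h (2.82% against 0.888%) and 3 of 69 at 78 h (4.35% against 0.849%) relative to the control, and for 2 at each duration relative to Tip60wt (2.82% against 1.0%, and 2.9% against 0.783%). The median level of a tested member over the 18 libraries was 0.479 CPM at 48 h, where that of all tested genes was 20.6 CPM. Restricting both to genes with a mean under 1 CPM, a level chosen after the values were seen, 12 of 50 members rose at 48 h (24.0% against 16.5%) and 11 of 48 at 78 h (22.9% against 21.2%). At 78 h the share of members was therefore close to that of other low genes. Against Tip60wt the same restriction gave 12 of 50 (24.0% against 16.2%) and 16 of 48 (33.3% against 15.0%). Falls among these low members were 2 of 50 at 48 h (4.0% against 1.97%) and 2 of 48 at 78 h (4.17% against 1.78%) relative to the control, and 2 of 50 (4.0% against 1.9%) and 0 of 48 (background 1.39%) relative to Tip60wt.

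Against the control, each family had members that rose. In all genes tested 19.6% rose and 19.4% fell at 48 h, and 22.4% rose and 21.7% fell at 78 h. Of those under 1 CPM, where most tested members lay, 1.97% and 1.78% fell. The families hold 9 to 20 tested members each, so their shares are coarse. Of the tested Or genes 5 of 13 rose and 1 fell at 48 h, and 4 of 12 rose and 0 fell at 78 h. Of the Gr genes 3 of 9 rose and 1 fell at each duration. Of the Ir genes 4 of 20 rose and 2 fell at each duration. Of the Obp genes 3 of 17 rose and 2 fell at 48 h, and 2 of 15 rose and 2 fell at 78 h. Of the ppk genes 2 of 12 rose at 48 h and 5 of 13 at 78 h, and 0 fell.

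Summed over a family, levels with Tip60dn were above the control in the Or, Gr and ppk families, and below it or overlapping with it in the Ir and Obp families. The Or sum was 13.4 to 15.2 CPM in the 48 h controls and 19.5 to 22.1 CPM with Tip60dn, and 13.2 to 13.3 and 15.8 to 18.9 CPM at 78 h. The ppk sum was 13.0 to 14.4 and 22.5 to 26.2 CPM at 48 h, and 13.1 to 13.5 and 21.4 to 23.1 CPM at 78 h. In both families the groups did not overlap. The Gr sum was 17.8 to 21.4 CPM in the 48 h controls, 13.9 to 16.2 CPM with Tip60wt and 23.9 to 28.3 CPM with Tip60dn. The Ir sum was 55.7 to 58.3 CPM in the 48 h controls and 51.8 to 55.1 CPM with Tip60dn, and at 78 h the groups overlapped at 49.3 to 50.9 and 48.7 to 51.1 CPM. Obp sums without the variable Obp56d and Obp99b were 25 to 31.2 and 16.3 to 22.3 CPM at 48 h, and 23.9 to 26.2 and 15.3 to 22.8 CPM at 78 h, with Tip60dn lower and no overlap. Single genes hold much of these sums. Or43b held 64.6% of the Or sum over all libraries, Gr61a 42.2% of the Gr sum, Ir76a 47.2% of the Ir sum, Obp99b 38.6% of the Obp sum and ppk29 53.1% of the ppk sum. In the Or and Gr families the differences between arms can rest on other genes, since Or43b was nearly level and Gr61a was lower with Tip60dn at 48 h. In the ppk family much of the 48 h difference lay in ppk29 itself. It had 527, 615 and 461 counts in the 48 h controls and 1153, 978 and 1090 with Tip60dn. Much of the 48 h Gr difference lay in Gr39a, which had 98, 359 and 184 counts in the controls and 602, 669 and 347 with Tip60dn. Its counts, and so the Gr sum, may include intron reads of its host Mondo (below).

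**Figure D2:**
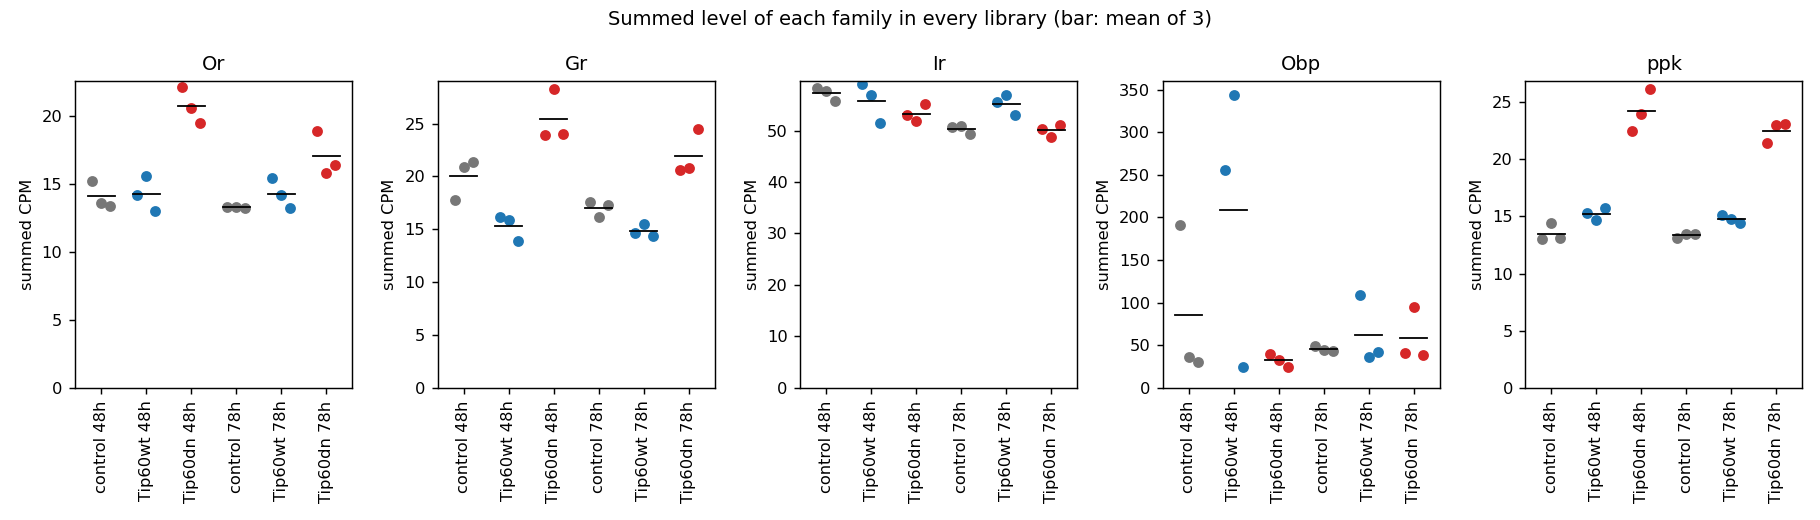
Each point is the summed CPM of a family in a library (y axis, summed CPM from 0; x axis, arm and duration), and the bar is the mean of 3 libraries. The ppk sums with Tip60dn lie at 21.4 to 26.2 CPM, above all others, and the Obp sums spread from 24.3 to 344 CPM within Tip60wt at 48 h.

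Among the odorant receptors the largest rises were of Or56a and Or98a. Or56a (FBgn0034473, chromosome 2R, 19769461 to 19771233, BDGP6) encodes the receptor for geosmin, an odour of moulds that adult flies avoid. It stood at 0.0223, 0.232 and 0.0235 CPM in the 48 h controls, at 0.176, 0.0827 and 0.0283 CPM with Tip60wt, and at 3.71, 3.34 and 1.55 CPM with Tip60dn. With the longer expression it stood at 0.067, 0.0417 and 0.0263 CPM in the controls, at 0.0465, 0.0964 and 0.104 CPM with Tip60wt, and at 1.18, 0.489 and 0.531 CPM with Tip60dn. Every Tip60dn library was above all others of its duration. At each duration Or56a passed the filter on low counts only through its Tip60dn counts, so no fall could be called for it. The log2 rise against the control was 4.91 (SE 0.85, adjusted p = 0.0019) at 48 h and 3.97 (SE 0.55, adjusted p = 5.43e-04) at 78 h, and against Tip60wt 4.83 (SE 0.84, adjusted p = 0.00244) and 3.14 (SE 0.52, adjusted p = 0.00177).

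Or98a (FBgn0039551, chromosome 3R, 27845950 to 27847260), an odorant receptor of the adult antenna, had 0.0223, 0.0631 and 0 CPM in the 48 h controls, 0, 0 and 0.0283 CPM with Tip60wt, and 0.974, 0.76 and 0.41 CPM with Tip60dn. In the 78 h controls it had 0 counts in all 3 libraries, where Tip60wt gave 0.0233, 0.0428 and 0.0259 CPM and Tip60dn 0.34, 0.489 and 0.379 CPM. The Tip60dn libraries were again above all others. Its log2 rise against the control was 4.55 (SE 0.90, adjusted p = 0.00369) at 48 h. After 78 h it was at least 34.3-fold higher than a floor of 3 counts over the control libraries (adjusted p = 2.62e-04), and the fitted log2 value of 8.12 depends on the prior count. Against Tip60wt at 48 h, with 2 counts in that group, the ratio was 101 (95% counting interval 27.5 to 838), and at 78 h the log2 rise was 3.64 (SE 0.51, adjusted p = 0.00164).

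Or98a lies in an intron of CG34353 on the opposite strand, and CG34353 also rose, by 1.67 log2 at 48 h (adjusted p = 0.0216) and 1.56 at 78 h (adjusted p = 0.022). The counting's strand setting was not given in the sources used here, so counts of Or98a cannot be told apart from intron reads of its host.

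Smaller rises were seen in Or67a and Or22c. Or67a, another receptor of adult antennal neurons, stood at 0.323, 0.326 and 0.306 CPM in the 48 h controls, at 0.715, 1.12 and 0.425 CPM with Tip60wt and at 1.2, 1.35 and 1.2 CPM with Tip60dn. The Tip60wt libraries thus lay between the other arms. The log2 rise of Tip60dn over the control was 1.97 (SE 0.34, adjusted p = 0.00176) at 48 h and 2.17 (SE 0.31, adjusted p = 5.77e-04) at 78 h, and over Tip60wt it passed at 78 h (0.93, SE 0.29, adjusted p = 0.0327). The latter call was lost in 5 of 11 alternatives, 4 of them single libraries left out (adjusted p up to 0.106), and both calls against the control were kept in all. Or22c, known as a larval odorant receptor, rose by 1.57 log2 (SE 0.31, adjusted p = 0.00364) and 1.42 (SE 0.43, adjusted p = 0.0246) against the control, the latter lost without any of 4 libraries (adjusted p up to 0.0924). In the 78 h libraries the near-identical neighbours Or22a and Or22b both rose against Tip60wt, by 1.58 and 1.64 log2, and the split of reads between them is uncertain. That of Or22b was lost without any of 3 libraries (adjusted p up to 0.0572). The split is uncertain too for Or65a and Or65b, of which Or65b rose against the control at 48 h from 0.0144 ± 0.0125 to 0.14 ± 0.06 CPM.

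Or43b, the member with the most counts of its family, was nearly level. It stood between 8.88 and 11.9 CPM in all 18 libraries, and passed a test once, with a log2 rise of 0.26 (SE 0.08, adjusted p = 0.0317) of Tip60dn over Tip60wt at 48 h, which was lost without any of 4 libraries (adjusted p up to 0.113). Of its exon length 40.7% lies opposite Cul1, which is expressed at 288 to 349 CPM on average. Or2a, the next in level, was called in no comparison. The co-receptor gene Orco had 1 count in 1 Tip60dn library of 48 h and 0 in the other 17 libraries.

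Like Or67a, but in another order, Or71a set the 3 arms apart at 48 h. This receptor of the maxillary palp stood at 0.223, 0.116 and 0.2 CPM in the 48 h controls, at 0.822, 0.755 and 0.623 CPM with Tip60wt and at 0.0775, 0.0644 and 0.0473 CPM with Tip60dn. No 2 arms overlapped. Tip60dn was lower than the control by a log2 change of -1.47 (SE 0.40, adjusted p = 0.0167) and Tip60wt was higher by 2.03 (SE 0.35, adjusted p = 0.0136). The first call was lost without control replicate 1 (adjusted p = 0.0592), and the second without Tip60wt replicate 1 or control replicate 2 (adjusted p up to 0.0708). Tip60wt libraries were still highest at 78 h, at 0.64, 0.6 and 0.401 CPM, beside 0.161, 0 and 0.19 CPM with Tip60dn and 0.19, 0.177 and 0.0395 CPM in the controls, and no comparison of it passed the test (adjusted p 0.0701 to 0.871). Or71a lies in an intron of Plp on the same strand, and Plp rose with Tip60dn by 0.24 and 0.32 log2 at the 2 durations, opposite in sign to Or71a at 48 h.

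**Figure D3:**
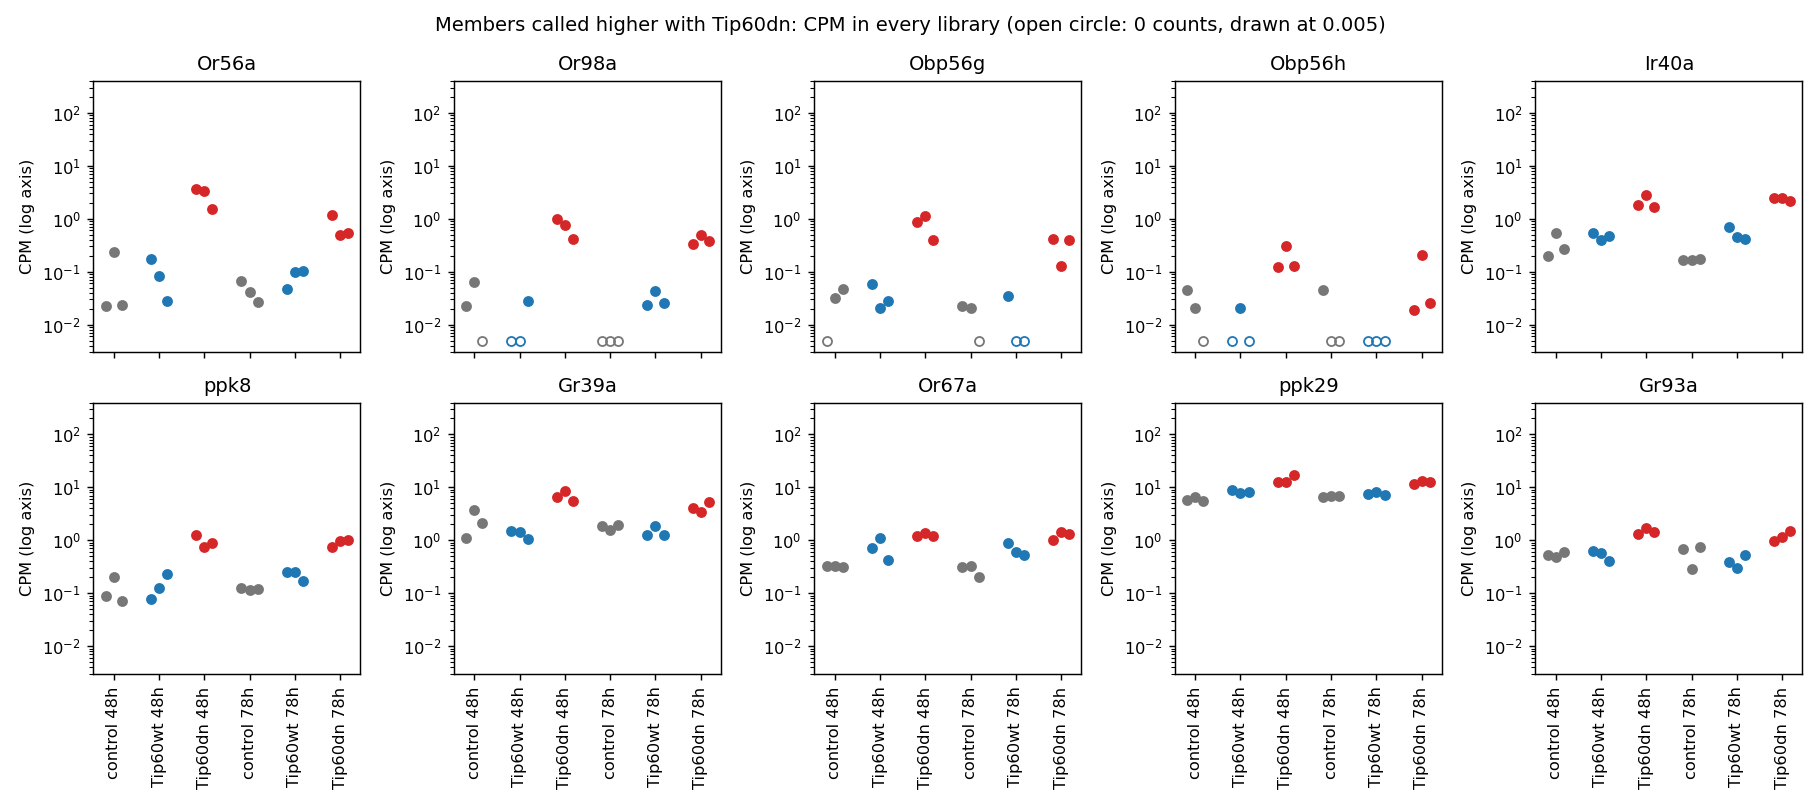
CPM in every library (y axis, log axis; x axis, arm and duration) of 10 members called higher with Tip60dn than in the control at 1 duration or more. Points are libraries, grey for control, blue for Tip60wt and red for Tip60dn, and open circles are 0 counts. For Or56a and Or98a the red points lie above all others of their duration.

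In the odorant-binding proteins Obp56g rose and Obp99a and Obp83g fell in every comparison of Tip60dn. Apart from Obp56d, the other calls were, like those of Obp56g, of lowly counted genes. Among those, Obp18a rose over Tip60wt at 78 h, from 0.136 ± 0.0123 to 0.336 ± 0.0473 CPM (log2 1.30, SE 0.39, adjusted p = 0.0264). Obp46a was lower with Tip60dn than with Tip60wt at 48 h, at 0.0286 ± 0.0145 against 0.169 ± 0.0154 CPM (log2 -2.46, SE 0.69, adjusted p = 0.0217), a call lost without any of 5 libraries (adjusted p up to 0.074). Obp56g (FBgn0034474, chromosome 2R, 19783484 to 19784043) had 0, 0.0316 and 0.047 CPM in the 48 h controls and 0.863, 1.11 and 0.395 CPM with Tip60dn. With 78 h of expression it had 0.0223, 0.0209 and 0 CPM in the controls and 0.415, 0.126 and 0.404 CPM with Tip60dn. Groups did not overlap, and the log2 rise was 4.85 (SE 0.77, adjusted p = 0.00123) and 4.27 (SE 0.99, adjusted p = 0.00716). Against Tip60wt it rose by 4.38 (SE 0.74, adjusted p = 0.00202) at 48 h, and at 78 h, with 3 counts in that group, the ratio was 28.3 (95% counting interval 9.37 to 140).

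Obp56h, whose product has been linked to mating behaviour, followed at a lower level. It had 0.0446, 0.021 and 0 CPM in the 48 h controls and 0.122, 0.309 and 0.126 CPM with Tip60dn, a log2 rise of 2.99 (SE 0.95, adjusted p = 0.0328). That call was lost without any of 5 libraries, with adjusted p up to 0.138. At 78 h Obp56h did not pass the filter on low counts, and only 1 Tip60dn library stood clear of the controls, at 0.21 CPM beside 0.0189 and 0.0253 CPM.

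Or56a lies inside the Obp56 cluster, 12.2 kb from Obp56g and 44.3 kb from Obp56h. In the window from Obp56a to Obp56i, chosen after the values were seen (2R, 19697723 to 19868714), 10 genes were tested at 48 h, of which 6 rose and 0 fell against the control, where 19.6% of all tested genes rose. In the 78 h fit 8 were tested, of which 5 rose and 0 fell, where 22.4% of all tested genes rose. Since the window was drawn around members already seen to rise, nothing is read from these counts. At both durations these included Or56a, Obp56g, the long noncoding RNA lncRNA:CR45231 and the receptor gene Toll-7. lncRNA:CR45231, 250 bp from Obp56g on the other strand, rose from 0.243 ± 0.392 to 3.83 ± 1.55 CPM at 48 h (log2 3.95, SE 1.07, adjusted p = 0.0164). Toll-7 rose by 0.40 log2 (adjusted p = 4.31e-04), from 390 ± 23.6 to 514 ± 20.8 CPM. The window also holds an array of near-identical 5S ribosomal RNA genes, whose counts are uncertain, and 1 of them is among the 6.

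Obp99a and Obp83g fell with Tip60dn in all 4 comparisons. Obp99a stood at 17.9, 14.1 and 14.1 CPM in the 48 h controls, at 12.8, 14.7 and 12.3 CPM with Tip60wt and at 10.3, 7.43 and 7.53 CPM with Tip60dn. The 78 h values were 12.6, 14.1 and 12.6 CPM, 14.2, 14.2 and 16.1 CPM, and 4.97, 7.09 and 7.44 CPM in the same order. The Tip60dn libraries were the lowest at each duration, with log2 changes against the control of -0.87 (SE 0.15, adjusted p = 0.00175) and -1.01 (SE 0.14, adjusted p = 4.96e-04). Obp83g stood at 3.6, 3.63 and 3.54 CPM in the 48 h controls and at 1.98, 2.23 and 1.91 CPM with Tip60dn. Its log2 changes were -0.81 (SE 0.13, adjusted p = 0.00116) and -0.91 (SE 0.14, adjusted p = 8.20e-04) against the control, and -0.92 and -1.01 against Tip60wt.

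Obp99b and Obp56d, highest in level per kb of exon among all members, varied more within groups than between them. Obp99b stood at 20.1, 223 and 2.73 CPM in the Tip60wt libraries of 48 h and at 7.46, 9.01 and 4.75 CPM in the controls. Obp56d stood at 205, 81.9 and 0.468 CPM with Tip60wt, at 153, 1.94 and 0.329 CPM in the controls and at 1.03, 1.34 and 1.23 CPM with Tip60dn. The means of groups with high values thus rest on 1 or 2 libraries. Fat body markers (7 matched, none at 0) summed to 16.0, 175 and 3050 CPM in the Tip60wt libraries of 48 h, to 72.2 to 210 CPM in the controls and to 49.0 to 111 CPM with Tip60dn. The library with 3050 CPM was the one with 223 CPM of Obp99b and 11.0 CPM of Obp99c, and the part of fat body RNA in these levels was not tested.

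At 48 h no comparison of Obp56d or Obp99b passed the test. Obp56d rose at 78 h with Tip60dn against the control, from 0.309 ± 0.102 to 2.49 ± 2.25 CPM (log2 3.01, SE 1.03, adjusted p = 0.0395). Its values were 0.831, 5.06 and 1.59 CPM, and without the library at 5.06 CPM the log2 change was 1.97 (adjusted p = 0.156). Obp19d was called higher at 48 h (2.37, adjusted p = 0.0459) on 0.465 CPM in 1 Tip60dn library, beside 0.0773 and 0.0947 CPM, and without it the log2 change was 1.04 (adjusted p = 0.316).

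Among the gustatory receptors Gr39a and Gr93a rose and Gr61a and Gr66a were lower with either transgene. Gr39a (FBgn0264556, chromosome 2L, 21290734 to 21297686), a receptor of bitter-sensing neurons, stood at 1.09, 3.78 and 2.16 CPM in the 48 h controls, at 1.48, 1.41 and 1.06 CPM with Tip60wt and at 6.66, 8.62 and 5.48 CPM with Tip60dn. Its log2 rise against the control was 1.56 (SE 0.38, adjusted p = 0.0101) at 48 h and 1.28 (SE 0.22, adjusted p = 0.00159) at 78 h, and against Tip60wt it was 2.39 and 1.57. Gr39a lies in an intron of Mondo on the opposite strand. Mondo, which stood at 184 ± 33.2 CPM in the 48 h controls, rose by 1.10 and 0.70 log2, and with the strand setting not given the counts of Gr39a cannot be told apart from intron reads of its host.

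Gr93a, required for the taste of caffeine, stood at 0.535, 0.474 and 0.599 CPM in the 48 h controls, at 0.617, 0.579 and 0.411 CPM with Tip60wt and at 1.33, 1.74 and 1.42 CPM with Tip60dn. The Tip60dn libraries stood clear of the other arms. Its log2 rise was 1.48 (SE 0.24, adjusted p = 0.00141) at 48 h and 1.09 (SE 0.38, adjusted p = 0.0431) at 78 h, where 4 of the 6 libraries could not be left out without losing the call. Gr47b, another gustatory receptor, rose by 0.81 (adjusted p = 0.00332) and 0.89 (adjusted p = 0.0212), the latter lost without any of 4 libraries (adjusted p up to 0.0825). Gr43a, an internal fructose sensor, rose against Tip60wt at 48 h, from 0.163 ± 0.0828 to 0.522 ± 0.0848 CPM (adjusted p = 0.015, and 0.0532 without Tip60wt replicate 3).

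Gr66a, a receptor common to bitter-sensing neurons, was lower in both transgene arms. It stood at 1.13, 1.16 and 0.752 CPM in the 48 h controls, at 0.343, 0.31 and 0.198 CPM with Tip60wt and at 0.509, 0.696 and 0.284 CPM with Tip60dn. The 78 h values were 0.916, 0.772 and 0.962 CPM, 0.233, 0.182 and 0.194 CPM, and 0.557, 0.391 and 0.278 CPM in the same order. All control libraries were above all transgene libraries. Tip60wt was lower than the control by log2 changes of -1.82 (SE 0.38, adjusted p = 0.0317) and -2.11 (SE 0.32, adjusted p = 0.00571), and Tip60dn by -1.10 (SE 0.30, adjusted p = 0.0159) at 78 h. The Tip60wt call at 48 h was lost without any of 5 of the 6 libraries (adjusted p up to 0.117) and the Tip60dn call without any of 3 (up to 0.057), while the Tip60wt call at 78 h was kept throughout. Gr61a, a glucose receptor and the most counted of its family, stood at 9.82, 10.1 and 10.9 CPM in the 48 h controls, at 7.22, 7.48 and 6.48 CPM with Tip60wt and at 6.93, 7.38 and 8.16 CPM with Tip60dn. The controls were above both transgene arms, with log2 changes of -0.54 (SE 0.09, adjusted p = 0.0115) for Tip60wt and -0.46 (SE 0.09, adjusted p = 0.00388) for Tip60dn at 48 h, and neither passed at 78 h (-0.39 and -0.17).

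The ionotropic receptors moved in both directions. Ir40a (FBgn0259683, chromosome 2L, 22189526 to 22214376), a subunit for sensing dry air, stood at 0.201, 0.537 and 0.27 CPM in the 48 h controls, at 0.538, 0.393 and 0.482 CPM with Tip60wt and at 1.79, 2.85 and 1.66 CPM with Tip60dn. After 78 h it stood at 0.167, 0.167 and 0.171 CPM, 0.686, 0.45 and 0.414 CPM, and 2.45, 2.46 and 2.19 CPM in the same order. There the arms were ordered control, Tip60wt and Tip60dn without overlap. The log2 rise of Tip60dn over the control was 2.63 (SE 0.39, adjusted p = 8.45e-04) and 3.80 (SE 0.26, adjusted p = 1.57e-05), and that of Tip60wt at 78 h was 1.61 (SE 0.25, adjusted p = 0.00665). Its nearest gene, CG3635, 5534 bp away on the other strand, rose with Tip60dn by 4.14 and 4.35 log2.

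Smaller rises with Tip60dn were those of Ir62a, of 0.56 (SE 0.14, adjusted p = 0.0125) and 0.62 (SE 0.10, adjusted p = 0.00111), and of Ir7f, of 0.98 (SE 0.23, adjusted p = 0.00963) and 1.22 (SE 0.20, adjusted p = 0.00131). Ir62a lies in an intron of Iml1 on the same strand, and Iml1 rose by 0.25 and 0.37 log2. Without control replicate 1 the 48 h call of Ir62a was lost (adjusted p = 0.0505).

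Ir76a, the most counted of the family and a subunit tuned to amines, fell. It stood at 29.7, 28.5 and 29.9 CPM in the 48 h controls, at 31.3, 30.2 and 26.8 CPM with Tip60wt and at 20.4, 19.7 and 19.5 CPM with Tip60dn. The 78 h values were 24.7, 25.7 and 26.1 CPM, 28.8, 31.5 and 27.3 CPM, and 17.6, 18 and 19.7 CPM in the same order. No Tip60dn library reached any other library of its duration, and the log2 change against the control was -0.56 (SE 0.06, adjusted p = 1.63e-04) and -0.47 (SE 0.07, adjusted p = 5.42e-04). Against Tip60wt it was -0.57 (adjusted p = 1.84e-04) and -0.66 (adjusted p = 1.25e-04).

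Of the 4 Ir co-receptor genes, Ir25a and Ir93a passed the filter on low counts. Ir25a, which serves smell, taste, humidity and temperature neurons, stood at 0.858, 1.57 and 0.811 CPM in the 48 h controls, at 0.245, 0.31 and 0.142 CPM with Tip60wt and at 0.166, 0.206 and 0.142 CPM with Tip60dn. As with Gr66a, both transgene arms lay below the control. The log2 changes were -2.20 (SE 0.39, adjusted p = 0.0153) for Tip60wt and -2.64 (SE 0.40, adjusted p = 0.00102) for Tip60dn at 48 h, and -2.17 (SE 0.60, adjusted p = 0.0166) for Tip60dn at 78 h. The Tip60wt call was lost without Tip60wt replicate 1 or control replicate 2 (adjusted p up to 0.0737), and the 78 h call without control replicate 3 (0.0511). Ir93a, the partner of Ir25a and Ir40a in humidity sensing, was higher with Tip60dn than with Tip60wt at 48 h (1.11, SE 0.24, adjusted p = 0.0072) and was called in no other comparison. Ir8a had 4 to 13 counts over each group of 3 libraries, and Ir76b had 7 counts in the 48 h controls, 12 with Tip60dn at 48 h and 0 in the other 4 groups.

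**Figure D4:**
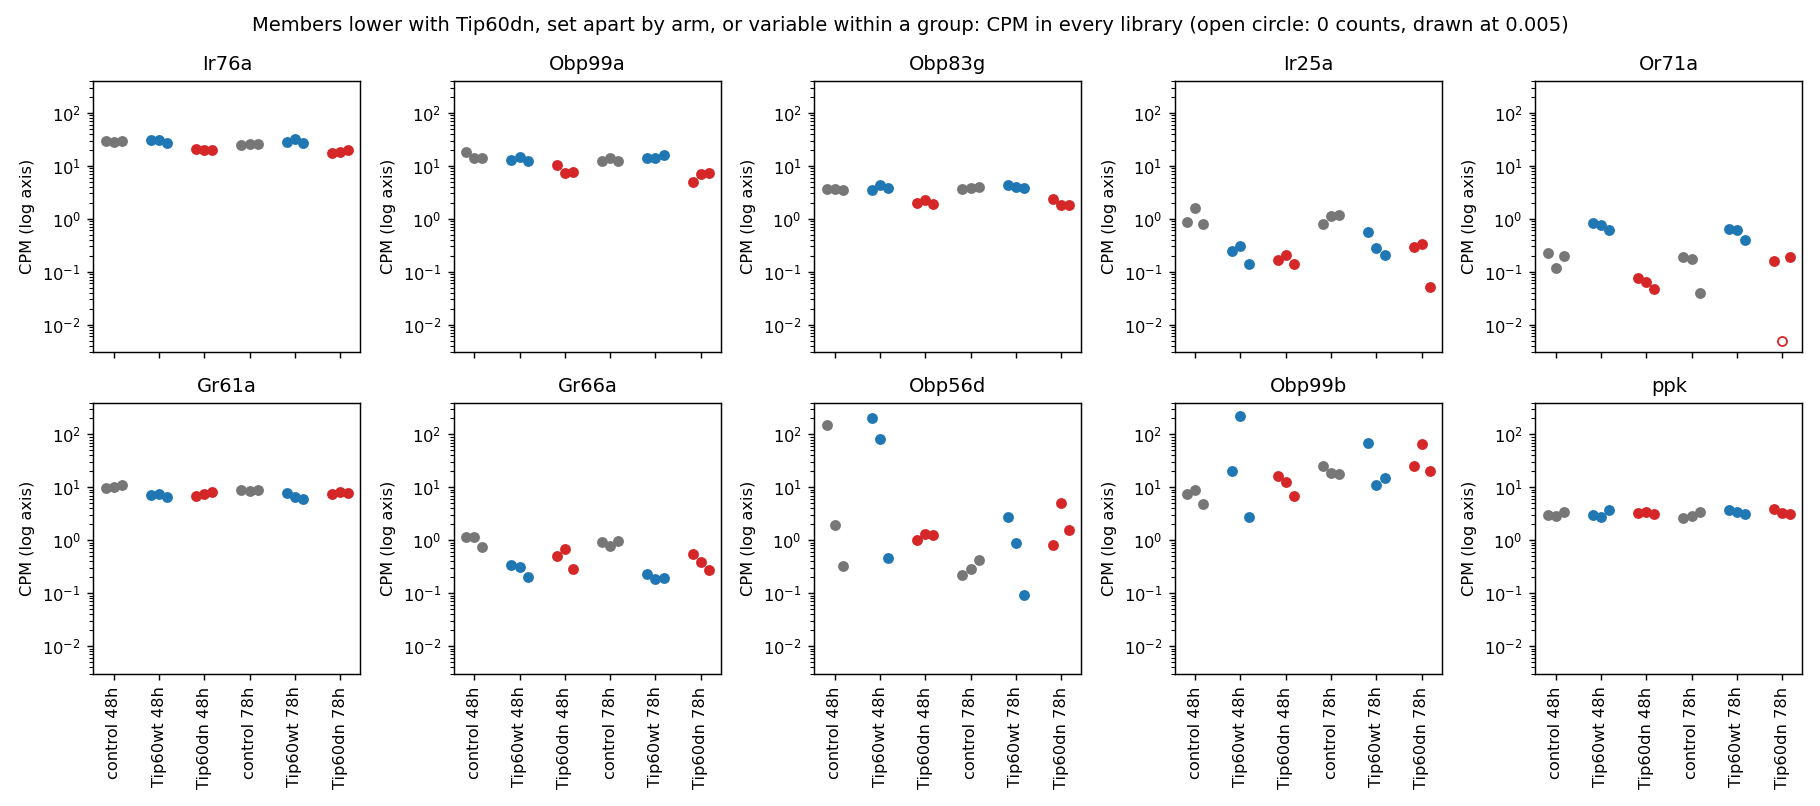
CPM in every library (y axis, log axis; x axis, arm and duration) of members that were lower with Tip60dn, differed between arms or varied within a group, with ppk for comparison. Points are libraries, grey for control, blue for Tip60wt and red for Tip60dn, and the open circle is 0 counts. Ir76a, Obp99a and Obp83g are lowest in the red points, Ir25a and Gr66a are highest in the grey points, and Obp56d runs from 0.0906 to 205 CPM.

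In the ppk family ppk29 and ppk8 rose in every comparison of Tip60dn. ppk29 (FBgn0034965, chromosome 2R, 24052917 to 24057137), a channel subunit of pheromone-sensing taste neurons, stood at 5.87, 6.47 and 5.42 CPM in the 48 h controls, at 8.81, 7.83 and 8.18 CPM with Tip60wt and at 12.8, 12.6 and 17.2 CPM with Tip60dn. After 78 h it stood at 6.53, 6.83 and 6.77 CPM, 7.37, 8.13 and 7.26 CPM, and 11.5, 13 and 12.7 CPM in the same order. The arms were ordered without overlap at both durations. The log2 rise of Tip60dn over the control was 1.26 (SE 0.13, adjusted p = 1.41e-04) and 0.89 (SE 0.07, adjusted p = 4.67e-05), and over Tip60wt 0.78 and 0.71. Tip60wt against the control was not called. Of its exon length 10.7% lies opposite sei, which rose by 0.26 and 0.41 log2.

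ppk8 (FBgn0052792, chromosome X, 3557812 to 3572000) stood at 0.0892, 0.2 and 0.0705 CPM in the 48 h controls, at 0.0783, 0.124 and 0.227 CPM with Tip60wt and at 1.24, 0.734 and 0.884 CPM with Tip60dn. The Tip60dn libraries were clear of all others. Its log2 rise against the control was 2.97 (SE 0.51, adjusted p = 0.0019) and 2.90 (SE 0.31, adjusted p = 1.33e-04). Of its exon length 20.0% lies opposite CG2875, which changed the other way, by -0.29 and -0.39 log2. ppk9 rose against the control at 78 h with Tip60dn (3.11, SE 0.40, adjusted p = 3.74e-04) and with Tip60wt (2.02, SE 0.41, adjusted p = 0.0254). Its values were 0.0447, 0.0313 and 0.0527 CPM in the 78 h controls, 0.163, 0.15 and 0.22 CPM with Tip60wt and 0.415, 0.321 and 0.392 CPM with Tip60dn, so that the arms did not overlap. With replicate numbers as a paired block, its rise with Tip60dn over Tip60wt at 78 h went from an adjusted p of 0.0369 to one of 0.0566. That call was lost in 10 of 11 alternatives and the one with Tip60wt over the control in 7 of 11, while the one with Tip60dn over the control was kept in all 11.

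ppk, a subunit of the channel for harsh touch in larval body wall neurons, did not pass the test in any of the 6 comparisons and lay between 2.59 and 3.9 CPM in all 18 libraries. ppk16 and ppk11 were both higher with Tip60dn than with Tip60wt, ppk16 by 1.44 and 1.07 log2 and ppk11 by 1.71 and 1.76. At 48 h ppk16 had 67, 96 and 70 counts in the controls, 35, 41 and 32 with Tip60wt and 102, 95 and 60 with Tip60dn. For ppk11 the counts were 47, 59 and 36, then 22, 11 and 28, then 67, 50 and 61 in the same order. The 48 h differences thus rest in part on Tip60wt libraries that lay below the controls. The call of ppk16 at 78 h was lost without any of 4 libraries (adjusted p up to 0.103). All of the exon length of ppk16 is overlapped by ppk11 on the same strand, so their counts are not separate evidence. At 78 h ppk18 rose against the control (log2 0.99, SE 0.31, adjusted p = 0.0283) and against Tip60wt (log2 1.89, SE 0.32, adjusted p = 0.00212). The first of these calls was lost in 6 of 11 alternatives, 4 of them single libraries left out (adjusted p up to 0.101), and the second was kept in all 11.

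Few members were called between Tip60wt and the control. At 48 h 1 of 71 members rose, Or71a, and 4 fell, Ir25a, Gr66a, Gr61a and ppk16 (1.41% and 5.63%, background 1.73% and 1.84%). At 78 h 3 of 69 rose, Ir40a, ppk9 and Ir85a, and 1 fell, Gr66a (4.35% and 1.45%, background 2.09% and 1.97%). The median log2 fold change of tested members was 0.10 and 0.19, beside 0.00 and 0.01 for all tested genes. Of members under 1 CPM, 1 of 50 rose and 3 fell at 48 h (2.0% and 6.0%, against 1.19% and 1.01% of all such genes). At 78 h 2 of 48 rose and 1 fell (4.17% and 2.08%, against 1.2% and 0.926%). Each of these counts is small. The call of Ir85a was lost in 8 of 11 alternatives (adjusted p up to 0.171) and that of ppk16 in 9 of 11 (up to 0.16).

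The 2 durations largely shared the calls of Tip60dn against the control. Against the control 13 members rose with Tip60dn at both durations, 76.5% of the 17 called at 48 h and 72.2% of the 18 at 78 h, where for all genes the shares were 74.9% and 66.1%. They were Or22c, Or56a, Or67a, Or98a, Gr39a, Gr47b, Gr93a, Ir7f, Ir40a, Ir62a, Obp56g, ppk8 and ppk29. Among them Or56a, Or98a and Obp56g passed the filter only through their Tip60dn counts at both durations, so no fall could be called for them. Ir25a, Ir76a, Obp83g and Obp99a fell at both, 66.7% of the 6 called at 48 h and 80.0% of the 5 at 78 h (all genes 82.9% and 74.6%). Against Tip60wt 11 members rose with Tip60dn at both durations, 61.1% and 57.9% (all genes 66.5% and 68.4%). There 3 fell at both, 60.0% and 100% (all genes 77.6% and 72.4%). For Tip60wt against the control 0 rises were shared (all genes 61.1% and 50.9%), and Gr66a alone fell at both. In edgeR's test of the difference between durations, 0 of 75 members and 0 of 11173 genes passed for Tip60dn against the control. Of the 75 members 6 had an unadjusted p under 0.05, beside 6.95% of all tested genes, and the smallest adjusted p was 0.557. For Tip60dn against Tip60wt and for Tip60wt against the control 0 members passed too. Of the 75 members 5 and 6 had an unadjusted p under 0.05 there, beside 5.58% and 4.13% of all tested genes. The interaction was tested with no other tool.

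**Figure D5:**
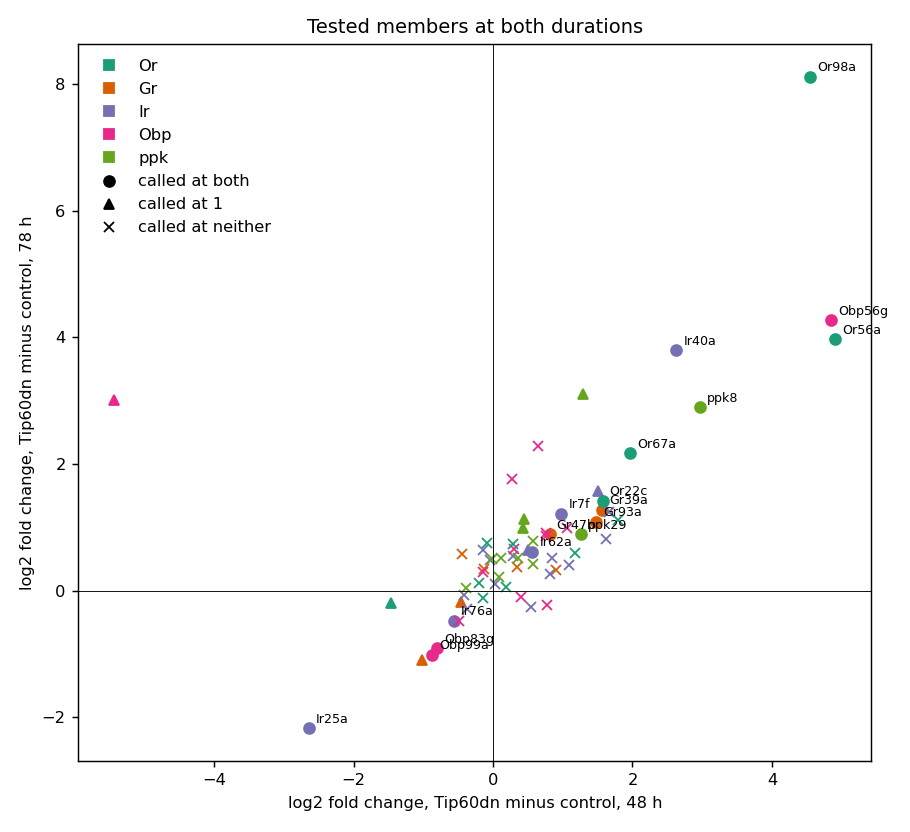
Log2 fold change of Tip60dn over control at 48 h (x axis) and 78 h (y axis) for the 66 members tested at both durations, coloured by family. Circles are members called at both durations, triangles at 1 and crosses at neither. Most circles lie in the upper right, and Obp56d is the triangle at the far left.

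Other genes of the same sensory systems did not move in 1 direction. Of 36 matched genes of chemosensory accessory proteins and sensory channels, 13 were tested, and Tip60dn against the control raised 3 and lowered 2 at 48 h and raised 3 and lowered 1 at 78 h. Between 8 and 12 of the 36 had 0 counts in a group, Orco among them in 5 of 6. The channel gene pyx rose by 1.32 log2 (adjusted p = 0.00175) and 0.78 (adjusted p = 0.00934), and CheA29a by 1.14 (adjusted p = 0.00693) and 0.91 (adjusted p = 0.0143). TrpA1, a heat and irritant channel, stood at 34.3, 90.6 and 84.9 CPM in the Tip60wt libraries of 48 h and at 27.4, 73.6 and 66.1 CPM in those of 78 h. In the other 12 libraries it was between 0.0221 and 0.271 CPM. Expression of the TrpA1 gene itself and counts that come with the Tip60wt transgene or its insertion cannot be told apart here.

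Of 15 regulators of sensory organs and sensory neurons, 14 were tested, and Tip60dn against the control raised 3 at 48 h and 4 at 78 h and lowered 0. The proneural gene ac rose by 0.47 log2 (adjusted p = 0.00232) and 0.34 (adjusted p = 0.00623), while sens changed by 0.01 and 0.20 without passing. Of 10 tested neuron markers, 4 rose and 2 fell at 48 h and 5 rose and 2 fell at 78 h. The synaptic genes nSyb and Syt1 rose by 1.68 and 1.84 log2 at 48 h, whereas elav fell by 1.09. The neuron markers summed to 264 to 276 CPM in the Tip60dn libraries of 48 h and to 328 to 332 CPM in the controls, and glia markers to 198 to 204 and 266 to 315 CPM. Of 10 hemocyte markers 7 rose at 48 h and 6 at 78 h. At the 2 durations 2 and 4 of 7 muscle markers, 3 and 3 of 4 tracheal markers, 0 and 4 of 4 gut markers and 2 and 0 of 5 salivary gland markers rose and none of them fell, and of the testis markers 1 rose and 1 fell at 48 h and 1 rose and 2 fell at 78 h. None of 7 fat body markers passed at either duration. None of the neuron, glia or hemocyte markers was at 0 in any group, and their part in the changes of the receptor genes was not tested.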

How the data were processed

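Gene counts of 18 libraries were deposited by the authors as whole numbers, in a table for each duration, and were used as deposited. Per the submitters' processing notes, reads were handled on build BDGP6, and the tools listed there are FastQC, featureCounts, edgeR 3.13.4 and limma. Aligner, strand setting and annotation release were not given in the sources used here. Gene symbols and coordinates were taken from Ensembl release 115, by gene identifier, for 17253 of 17559 genes.

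The 9 libraries of a duration were fitted together with group as the only term (R 4.3.3, edgeR 4.0.16): filterByExpr with a minimum of 10 counts, scaling by trimmed means of M values (TMM), two-sided quasi-likelihood test, Benjamini-Hochberg adjustment over all tested genes, calls at an adjusted p under 0.05. Differences between durations were tested as interactions over 18 libraries. The SE is the log2 fold change divided by the square root of F. The script was tested on simulated data. Counting intervals are exact at 95%, and intervals and floors cover counting error only.

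Named members were, per comparison and family, up to 3 called with the smallest adjusted p, the 3 highest in mean CPM per family, the Ir co-receptors, ppk and all newly detected members. Others were named after their values were seen: Obp99c, Obp18a, Or22a, Or65b, Ir7f and ppk11 (the members drawn singly in figures were also chosen then). The members, the 12 gene lists and the tests were chosen with earlier results of these data known. Alternatives were another scaling, no filter, DESeq2 1.42.0, a replicate block, only the 6 libraries compared, each library left out, and other detection levels.

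Same-numbered libraries deviated together for Tip60dn and Tip60wt at 78 h (correlations of residuals across genes 0.29, 0.35 and 0.32), so numbers were read as pairs there, from the data and not from the labels. The calls, SE and p printed for that comparison still come from the fit with group only. The fit with pairs is the replicate block among the alternatives.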

Additional observations from a re-analysis of the deposited data

How the results depend on the processing

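Of 88 calls of named members, 59 were kept under every alternative, 29 were lost under at least 1 and 0 changed direction. Another scaling lost 0, no filter on low counts 11, DESeq2 1, the replicate block 6 and fitting only the 6 libraries compared 7. In the paired comparison, Tip60dn against Tip60wt at 78 h, the replicate block gave 17 higher and 3 lower members, beside 19 and 3 in the fit with group only. In the comparisons whose numbers were not read as pairs it left every count within 1.5 times. DESeq2 gave 5 lower members for Tip60dn against Tip60wt at 78 h, and 3 higher at 48 h and 2 lower at 78 h for Tip60wt against the control. No filter and only the 6 libraries compared each gave 1 higher for Tip60wt against the control at 78 h. Newly detected members were 7 for Tip60dn at 48 h with a level of 0.05 CPM, 0 for Tip60wt at 48 h with 0.2 CPM and 0 for Tip60wt at 78 h with 0.05 CPM. No share of all genes is given at these levels, so no gain or loss is read from these counts. The cause of these shifts between alternatives was not tested.

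Leaving out each library in turn gave, for Tip60dn against the control, 13 to 16 higher and 5 to 10 lower at 48 h and 12 to 18 higher and 3 to 6 lower at 78 h. For Tip60dn against Tip60wt it gave 12 to 19 higher and 4 to 9 lower at 48 h and 12 to 18 higher and 3 to 4 lower at 78 h. For Tip60wt against the control it gave 0 to 3 higher and 1 to 3 lower at 48 h and 1 to 4 higher and 1 to 2 lower at 78 h. Against the 1.5-fold limit, counts moved to 10 lower without control 48 h replicate 3, 3 lower without control 78 h replicate 3 (both Tip60dn against the control), 9 lower without Tip60wt 48 h replicate 3, and 12 higher without Tip60wt 78 h replicate 2 or 3 (both Tip60dn against Tip60wt). For Tip60wt against the control at 48 h, higher members were 0 without Tip60wt replicate 1 or control replicate 2 and 3 without Tip60wt replicate 3, and lower members were 1 or 2 without any library but control replicate 3. At 78 h they were 1 higher without Tip60wt replicate 2 or 3 or any control, and 2 lower without Tip60wt replicate 1. Of the interaction tests none called a member with another scaling, without a filter or with a library left out. Levels under 0.1 CPM rest on about 10 counts or fewer, so differences among most members were not detectable at this depth.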

Other observations

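Neighbouring genes were looked at after the values were seen. At 48 h, 17 members rose with Tip60dn against the control, and for 12 of them the nearest other gene was tested. Of these 12 neighbours 5 rose (41.7%), namely RpS27A, CG3635, lncRNA:CR45231, Toll-7 and dpr3. Of the 39 tested neighbours of members that did not rise, 10 rose (25.6%). At 78 h the shares were 3 of 9 (33.3%) and 9 of 40 (22.5%). No test was made of these shares, and a neighbour can itself be a member. In the 48 h control, 76.1% of the 46 detected members overlapped an exon of another gene, lay in an intron or lay within 500 bp of a gene, and 75.3% of the other 219 did. Over the 6 groups the share among detected members ran from 74.1% (Tip60dn, 48 h) to 82.4% (Tip60wt, 78 h), where the other members had 75.8% and 73.8%.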
